A study of Caenorhabditis elegans with 2 samples.

Results

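MADF-6 binding was examined at places where 2 protein-coding genes follow each other closely on the same strand of the Caenorhabditis elegans genome. A gene was called a junction gene when the nearest protein-coding gene upstream of it on its own strand ended 0 to 500 bp before its annotated 5′ end, and that distance is called the gap. A peak summit was kept when it lay within 500 bp of the 5′ end of a junction gene, and summits lying up to 500 bp upstream of 2 divergent genes were dropped. The rule left 665 of the 4384 summits in the conservative list that combines both replicates, or 15.2% (95% Wilson interval 14.1 to 16.3), and they formed 675 pairs of a summit and a junction gene. The layout was defined by distance alone, with no evidence on transcripts.

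The peaks came from chromatin immunoprecipitation followed by sequencing (ChIP-seq) with an antibody against GFP, in strain RW12237, whose genotype is st12237[madf-6::TY1::EGFP::3xFLAG] I. This strain makes a tagged MADF-6 protein from the edited madf-6 gene itself. There was 1 group, whole young adults at 63 h that had been synchronised as starved first-stage larvae after bleaching, with 2 biological replicates. No untagged strain was analysed here, and a whole animal mixes germ line and somatic nuclei.

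The MADF domain is a DNA-binding fold related to that of Myb proteins. Many genes of this nematode are carried in operons, in which a single promoter ahead of the leading gene drives a precursor RNA that spans several genes, with short spacers between them. That precursor is cut at the 3′ end of each gene, and the next message receives a short spliced leader (SL2) by trans-splicing, so an inner gene of an operon needs no promoter beside its own 5′ end. Other close neighbours of the same strand do carry promoters of their own, and many messages receive another leader (SL1), which hides the true start of transcription.

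The sequences under 8 strong summits give examples of the bound DNA within short and long gaps. With gaps under 200 bp only 68 of 358 summits (19.0%) lay in the gap, so the short-gap examples come from the less common placement. They are the 4 of highest signal with a gap up to 200 bp and the 4 with a longer gap among summits found in both replicates, placed inside the gap, with at most 30 bases in annotated UTRs and in the part of the genome from which sequence is given here. Each reaches 50 bp to either side of the summit and was read from the WBcel235 genome (NCBI RefSeq). Capitals mark the word GCGCGC, the word GCGGGA, the word GCGCGA and the word CGAGAC, or their reverse complements. The first 4 lines have short gaps and the last 4 have long gaps.
tofu-6 (chrII:5421098-5421198, plus strand): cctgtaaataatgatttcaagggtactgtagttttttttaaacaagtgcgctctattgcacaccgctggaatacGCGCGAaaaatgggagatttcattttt
Y54E2A.8 (chrII:14778248-14778348, plus strand): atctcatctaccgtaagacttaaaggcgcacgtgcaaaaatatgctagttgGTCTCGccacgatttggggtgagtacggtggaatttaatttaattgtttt
rpi-2 (chrIV:1711187-1711287, plus strand): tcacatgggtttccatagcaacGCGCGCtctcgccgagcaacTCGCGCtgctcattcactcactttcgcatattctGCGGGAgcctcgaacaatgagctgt
Y46E12BL.2 (chrII:15232852-15232952, plus strand): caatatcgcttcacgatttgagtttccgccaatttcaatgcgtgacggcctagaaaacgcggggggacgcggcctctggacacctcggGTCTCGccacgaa
hcp-1 (chrV:6593850-6593950, plus strand): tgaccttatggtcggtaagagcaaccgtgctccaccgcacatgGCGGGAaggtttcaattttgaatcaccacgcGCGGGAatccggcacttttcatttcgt
cul-4 (chrII:7301789-7301889, plus strand): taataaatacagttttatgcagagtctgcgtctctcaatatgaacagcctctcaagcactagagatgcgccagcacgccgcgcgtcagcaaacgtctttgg
F26F2.7 (chrV:20580674-20580774, plus strand): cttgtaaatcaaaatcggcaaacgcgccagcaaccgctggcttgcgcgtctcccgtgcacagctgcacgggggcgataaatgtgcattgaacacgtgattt
perm-1 (chrII:7880531-7880631, plus strand): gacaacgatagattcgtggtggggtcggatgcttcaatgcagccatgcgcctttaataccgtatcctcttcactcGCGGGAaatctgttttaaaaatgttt
At tofu-6, which acts in the making of piRNAs, the summit lay 100 bp upstream of the 5′ end and 55 bp past the 3′ end of EEED8.15. At hcp-1, a kinetochore protein gene related to CENP-F, the window held GCGGGA at 2 places, and at rpi-2 it held 3 marked words. The windows of cul-4 and F26F2.7 held none of the words. Their G+C content ran from 37.6% at tofu-6 to 57.4% at Y46E12BL.2.

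A summit was more often found at junction genes than at other genes. Of 3618 junction genes, 626 had such a summit, or 17.3% (16.1 to 18.6), against 1834 of the 16355 other protein-coding genes, or 11.2%. The difference was 6.09 percentage points (95% Newcombe interval 4.79 to 7.44). Without genes that have a divergent gene start within 1000 bp upstream the shares were 17.3% of 3577 junction genes and 6.45% of 12857 other genes, and the difference was 10.9 points (9.58 to 12.2). Over all 19973 protein-coding genes, 12.3% had a summit within 500 bp of the 5′ end. These intervals cover counting error only and treat genes as independent, which neighbours sharing a summit are not: 9 summits served 2 junction genes each, and 48 junction genes had more than 1 summit.

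Within the 500 bp limit the share did not follow the gap. It was 16.1% of 806 genes at gaps of 0 to 99 bp, 18.6% of 1094 at 100 to 199 bp, 17% of 612 at 200 to 299 bp, 17.3% of 577 at 300 to 399 bp and 16.8% of 529 at 400 to 500 bp, and the intervals of all 5 classes overlapped. Among genes with gaps of 501 to 1000 bp the share was 9.03% of 2149, so that the share at gaps of 0 to 500 bp was 8.27 points higher (6.52 to 9.98). Gaps of 1001 to 2000 bp gave 8.88%, gaps of 2001 to 5000 bp 11.3% and longer ones 12.5%.

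**Figure D1:**
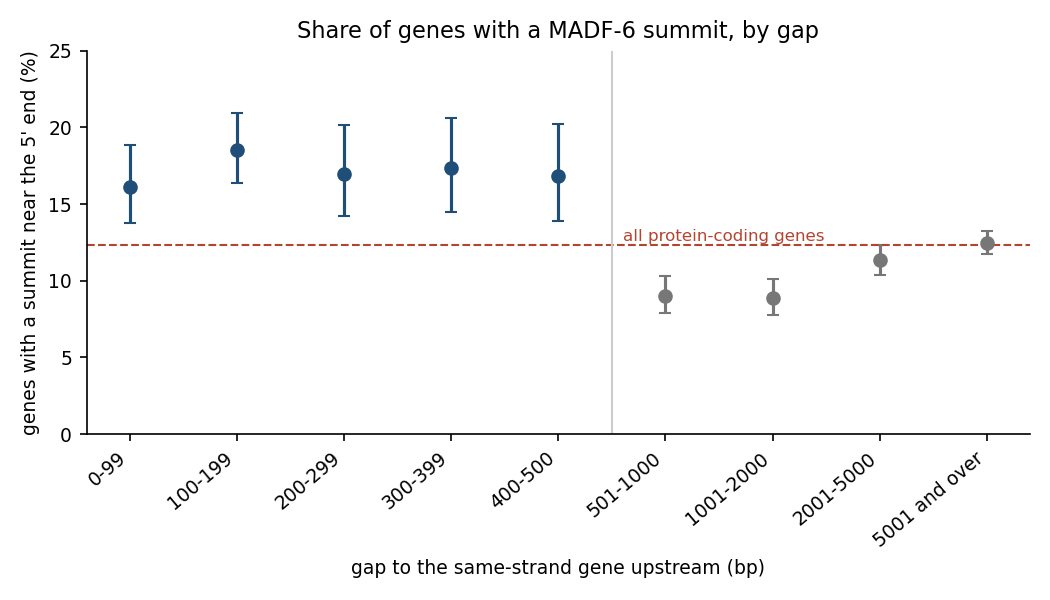
Percent of protein-coding genes with a conservative summit within 500 bp of the 5′ end (y axis) by the gap to the same-strand gene upstream (x axis); bars are 95% Wilson intervals, blue points are junction genes, grey points genes with longer gaps, and the dashed line is the 12.3% of all genes. The 5 junction classes lie between 16.1% and 18.6%, above the 9.03% at gaps of 501 to 1000 bp.

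By chromosome, the share of junction genes with a summit was 24.8% on I, 19.0% on II, 22.6% on III, 18.8% on IV, 11.1% on V and 1.12% on X, against 17.8%, 12.6%, 20.2%, 11.7%, 7.49% and 1.95% of the other genes in the same order. On X only 3 of 268 junction genes had one. The intervals of the 2 classes overlapped on III and X, and the junction genes stood above the others on I, II, IV and V.

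The first gene of a run of closely spaced genes, here called its head, is the place where an operon promoter would lie. An inner gene, which is the same as a junction gene, had a summit in 17.4% of 3618 cases with the dropped summits counted too, a head in 21.4% of 2653 and a gene in no run in 9.23% of 13702. Inner genes thus stood below heads, with a difference of -4.09 points (-6.09 to -2.11). This order turned round without genes that have a divergent gene start within 1000 bp upstream: 17.3% of the 3577 inner genes left, 12.4% of the 1835 heads left and 5.45% of 11022 genes in no run had a summit. Inner genes were then 4.88 points above heads (2.89 to 6.80). A window of 250 bp also placed inner genes above heads, by 2.03 points (0.307 to 3.73).

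The share did not fall along a run. It was 17.6% of 2667 genes in the position after the head, 15.4% of 656 in the next, 18.4% of 196 in position 4, 21.4% of 70 in position 5 and 20.7% of 29 further on, with overlapping intervals. Neighbours tended to be bound together: 302 of 801 junction genes with a bound upstream gene had a summit (37.7%), against 324 of 2817 whose upstream gene was not bound (11.5%), a difference of 26.2 points (22.7 to 29.8). In 2667 pairs of a head and the gene after it, both were bound in 215, the inner gene alone in 255, the head alone in 360 and neither in 1837. Only 6 of the 675 pairs had the upstream gene's own 5′ end inside the window.

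Across gap classes, the distance of the summits from the gene that ends at the junction varied less than their distance from the gene that begins there. The median summit was 148 bp past the 3′ end of the upstream gene at gaps of 0 to 99 bp, 160 bp at 100 to 199 bp, 129 bp at 200 to 299 bp, 167.5 bp at 300 to 399 bp and 205.5 bp at 400 to 500 bp. Relative to the 5′ end of the downstream gene the same summits had medians of +69, +36.5, -124, -170.5 and -231.5 bp, where a positive value lies inside the gene. Over all pairs the middle 50% of summits spanned 128 bp when measured from the upstream 3′ end, with a median of 158 bp, and 242.5 bp when measured from the downstream 5′ end, with a median of -40 bp. A drift with the gap remained past the 3′ end: among pairs in both replicates the class medians were 135, 153, 125, 151.5 and 226 bp from the shortest gaps to the longest, and among pairs in the strongest of 4 bins of signal they were 71, 159, 122, 151.5 and 209 bp. A stretch of 50 to 250 bp past the upstream 3′ end held 455 of the 675 summits (67.4%), while the stretch 50 to 250 bp upstream of the downstream 5′ end held 246 (36.4%). Over all pairs, the median of 158 bp lies inside the stretch past the 3′ end. The median of -40 bp lies outside the stretch upstream of the 5′ end. These limits therefore favour the 3′ end, and the contrast in shares is not separate evidence on position. The contrast was smaller among stronger peaks. Medians from the 5′ end there, -96 bp in both replicates and -138 bp in the strongest bin, lay inside the upstream stretch. In the same order the shares were 68.4% and 43.6% of pairs in both replicates, and 68.1% and 53.9% of pairs in the strongest bin.

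**Figure D2:**
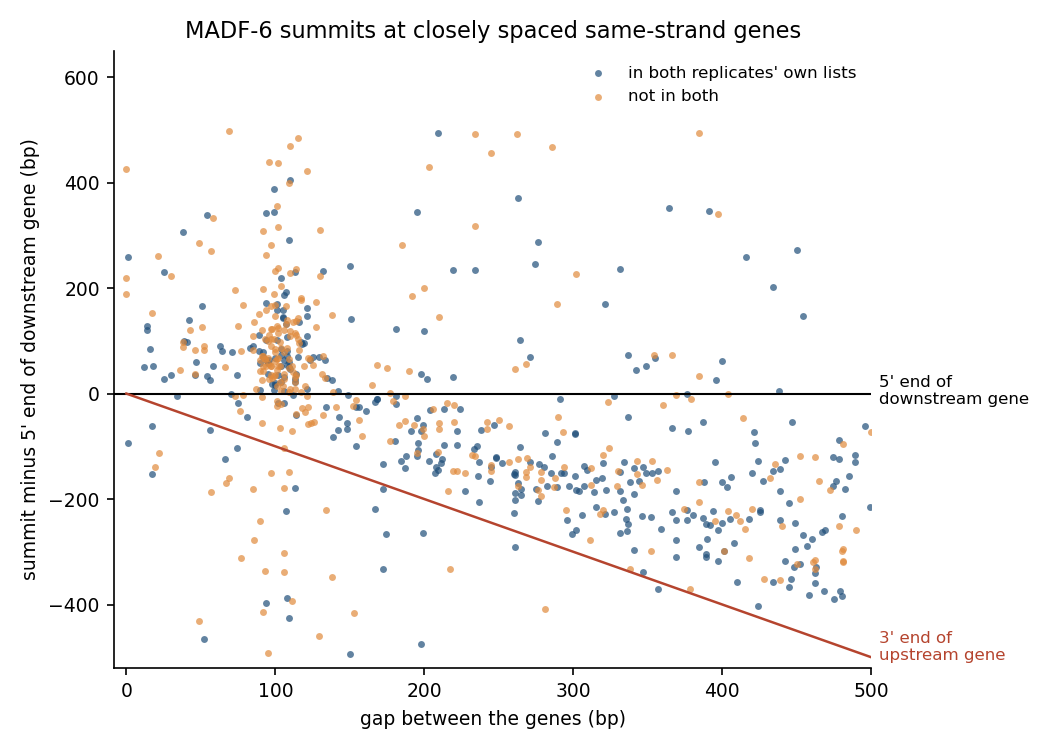
Position of each summit relative to the 5′ end of the downstream gene (y axis, bp) against the gap (x axis, bp) for 675 pairs; blue points were in the thresholded list of each replicate and orange points were not. The black line is the 5′ end of the downstream gene and the red line the 3′ end of the upstream gene; the cloud runs parallel to the red line, with a dense group at gaps near 100 bp.

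At short gaps this placed the summit inside the downstream gene. With gaps under 200 bp, 248 of 358 summits (69.3%) lay inside it, against 43 of 317 (13.6%) with gaps of 200 to 500 bp, a difference of 55.7 points (49.2 to 61.4). Of all 675 pairs, 338 had the summit in the gap, 291 inside the downstream gene and 46 inside the upstream gene. The gap itself took up 6.94% of the search window at gaps of 0 to 99 bp and 44.7% at 400 to 500 bp, but the window always reached equally far to each side of the 5′ end. The split between short and long gaps had the same direction in each of 4 bins of signal, at 49.3, 55.5, 58.6 and 43.0 points from the weakest to the strongest bin. Across the 675 pairs, Spearman's correlation with the gap was -0.59 for the position relative to the 5′ end and 0.16 for the distance past the 3′ end, given as a description. For that distance it was 0.22 over 358 pairs in both replicates and 0.32 over 141 pairs in the strongest bin.

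Heads, which end no gene at their 5′ end, had summits placed otherwise: 90 of 336 (26.8%) lay inside the gene, against 291 of 675 (43.1%) at inner genes. Inner genes with gaps of 200 to 500 bp had 13.6% inside, which was 13.2 points below heads (interval -19.2 to -7.09). A dense group at gaps of 80 to 129 bp, the spacing typical of operons, supplied 214 pairs (31.7%), of which 175 had the summit inside the downstream gene. The same gaps make up 1024 of the 3618 junction genes (28.3%), so the group was close to its share among all junction genes. By annotation, 328 of the 665 summits were intergenic, 174 were in coding exons, 88 in introns, 39 in 5′ UTRs and 36 in 3′ UTRs.

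Taken from the other side, genes followed by a junction more often had a summit in the first 500 bp past their 3′ end than other genes did. Such a summit was found for 575 of 3596 genes followed by a junction (16.0%, 14.8 to 17.2) and for 1002 of 16377 other genes (6.12%, 5.76 to 6.50). The median distance was 160 bp for genes followed by a junction and 187 bp for other genes. For a gene followed by a junction, this stretch reaches the next gene's 5′ end by definition. Its summits are therefore almost all junction summits already counted above, and the comparison is not separate evidence on position.

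Junctions that follow a ribosomal protein gene were bound almost without exception. Of 33 junction genes whose upstream neighbour encodes a protein of the cytoplasmic ribosome, 32 had a summit (97.0%, 84.7 to 99.5), against the 17.3% of all junction genes, and the single one without was D1007.10, 96 bp after rpl-24.1. The 33 follow 31 ribosomal protein genes and are not all independent, although the interval treats them so. After rpl-27, egl-30 and C53H9.4 shared 1 summit, and after rla-0, tct-1 and F25H2.12 shared 1. This group of neighbours was singled out after its values were seen. The 32 genes made 37 pairs with a median signal of 197.1, of which 29 were in both replicates' own lists. The summit lay inside the downstream gene in 26 pairs and in the gap in 10, at a median of 169 bp past the 3′ end of the ribosomal protein gene (middle 50% from 121 to 215 bp). In 1 pair, Y41D4B.4 after rps-28, the start of the ribosomal protein gene was itself in the window.

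The strongest of these was at xrn-2, a 5′ to 3′ exonuclease gene 198 bp after rpl-43, with a signal of 416.55 and a summit 237 bp past the 3′ end of rpl-43. The thoc-7 gene, for a subunit of the THO complex that couples transcription to export, had 368.64 at 186 bp past rpl-29. The suf-1 gene, for a factor in 3′ end cleavage of messages, had 354.64 at 163 bp past rpl-26. The cytochrome c gene cyc-2.1 had 295.08 at 157 bp past rpl-20, and egl-30, which encodes a Gq alpha subunit, had 280.64 at 152 bp past rpl-27. Ribosomal protein genes were also often bound at their own starts: of the 33 junctions, 26 had the upstream gene bound there, and 58 of the 73 ribosomal protein genes that are not junction genes had a summit within 500 bp of their 5′ end.

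The pattern was not limited to junctions. Among ribosomal protein genes, 30 of 31 followed by a junction had a summit in the first 500 bp past the 3′ end (96.8%, 83.8 to 99.4), and so did 44 of the 51 others (86.3%, 74.3 to 93.2). Small RNA genes lie near some of these peaks: without peaks whose summit is within 500 bp of a tRNA, snoRNA, snRNA, miRNA or rRNA gene, the share of junctions after ribosomal protein genes was 78.8% (62.2 to 89.3). The other 24 lists were read as upstream neighbours in the same way. The share was 61.5% after proteasome genes (8 of 13), 60.9% after chaperone genes (14 of 23), 54.5% after aminoacyl-tRNA synthetase genes (6 of 11) and 50% after nuclear pore genes (6 of 12). Junctions were bound in 15 of 32 cases after chromosome segregation genes, 10 of 22 after translation factors, 14 of 32 after ubiquitin and SUMO genes, 9 of 22 after RNA 3′ processing genes and 9 of 23 after germ line genes. Lower counts were 3 of 10 after DNA replication genes, 14 of 47 after chromatin genes, 4 of 14 after vacuolar ATPase and autophagy genes, 9 of 32 after respiratory chain genes, 10 of 37 after RNA polymerase and mediator genes, 7 of 28 after mitochondrial ribosomal protein genes and 2 of 9 after mitochondrial import genes. They were 12 of 55 after vesicle traffic genes, 10 of 49 after splicing genes, 5 of 28 after DNA repair genes and 1 of 7 after neuropeptide and insulin genes. Lowest were nuclear hormone receptors with 2 of 46, F-box, MATH and BTB genes with 3 of 77, chemoreceptors with 5 of 208 and cuticle collagens with 0 of 22, which allows a share of up to 14.9% (upper Wilson bound). Transcript levels were not analysed here, so their part in these shares was not tested.

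**Figure D3:**
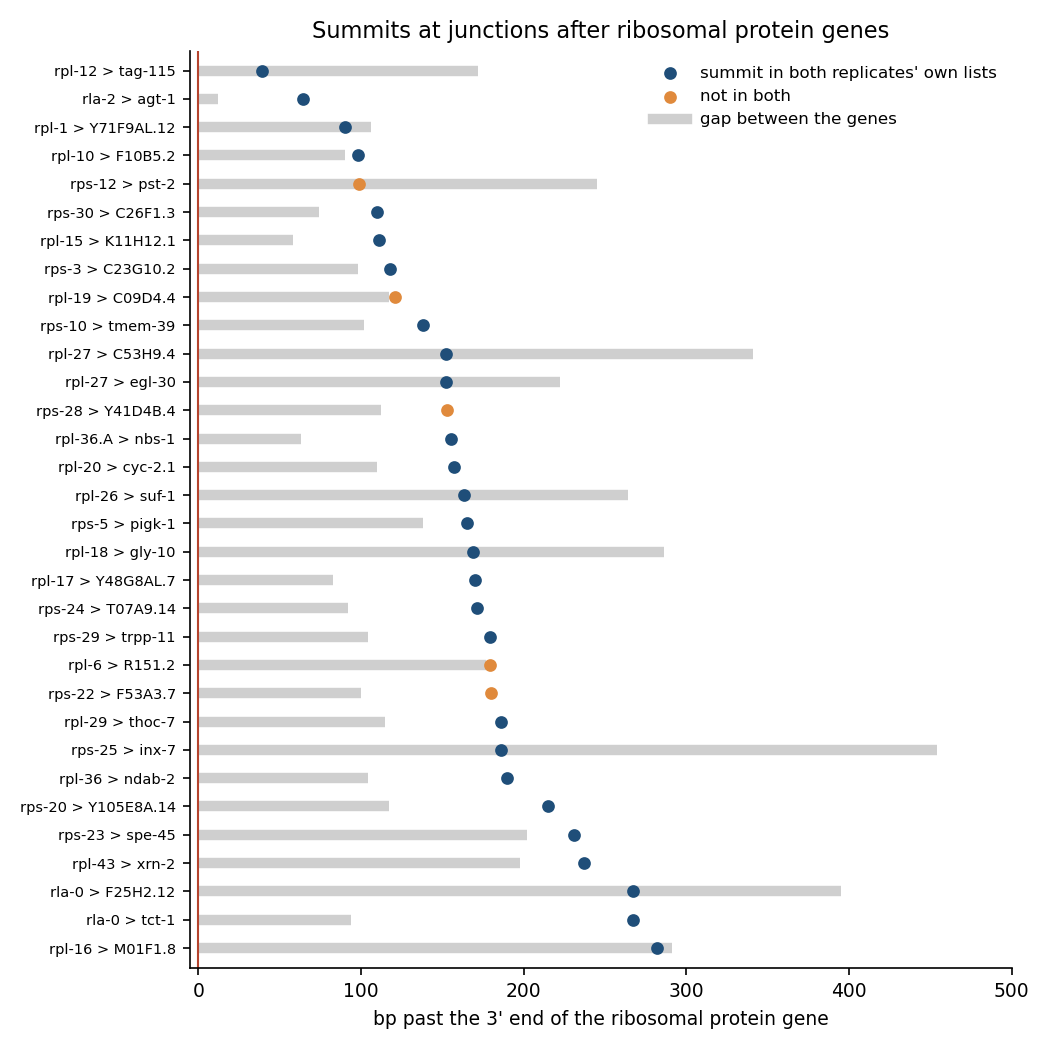
The 32 bound junction genes after a ribosomal protein gene (rows, upstream gene then downstream gene), with the distance of the strongest summit past the 3′ end of the ribosomal protein gene on the x axis (bp); grey bars are the gaps, blue points are summits in both replicates' own thresholded lists and orange points are not. The summits lie 39 to 282 bp past that 3′ end, most of them beyond the grey bar and so inside the downstream gene.

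The 15 strongest junction summits present in both replicates' own lists lay mostly in wide gaps. In the conservative list gpi-1, the gene for the glycolytic enzyme glucose-6-phosphate isomerase, ranked 4 of 4384 with a signal of 3753.7, and it ranked 6 in replicate 1 and 3 in replicate 2. Its summit was at chrI:13576192, in the annotated 5′ UTR 44 bp inside the gene and 387 bp past the 3′ end of nyn-2. C01G8.1 followed with 3207.2 (ranks 9 in replicate 1 and 7 in replicate 2), at 93 bp upstream of its 5′ end. The hcp-1 summit had 3007.5 (ranks 13 and 8 in replicates 1 and 2), at chrV:6593900, which is 294 bp upstream of hcp-1 and 156 bp past ZK1055.2.

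Several of these strong summits stood beside genes of the oocyte and eggshell. The chitin synthase gene chs-1, which builds the eggshell, had a signal of 2551 and ranked 24 in replicate 1 and 19 in replicate 2, with the summit 77 bp upstream. The perm-1 gene, needed for the permeability barrier of the egg, had 1867.6 and ranked 38 and 46 in replicates 1 and 2. The oocyte RNA-binding protein gene oma-1 had 1745 (ranks 57 and 50), 283 bp upstream and 126 bp past C09G9.5, and egg-4, a pseudophosphatase gene acting at the egg's activation, had 1351 (ranks 106 and 107). The others of the 15 were Y57G11C.5, cul-4, F26F2.7, acs-13, F32D1.7, skpt-1, aldo-2 and Y110A7A.15, with signals from 1250.9 at Y110A7A.15 to 2409.6 at Y57G11C.5. Of these, cul-4 encodes a scaffold of ubiquitin ligases and aldo-2 an aldolase of glycolysis. All but 1 of the 15 had gaps of 299 bp or more. Y57G11C.5 was the exception, with its summit in an intron 344 bp inside the gene, a gap of 195 bp and the snRNA gene Y57G11C.35 within 500 bp of the summit.

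Signal, the authors' enrichment value, had a lower median at junctions than at other gene starts, and its median was higher at wider gaps. Junction summits had a median of 132.2 (middle 50% from 93.4 to 233.1), against 188.4 at 1103 other summits near gene starts, 247.7 at 404 summits between divergent genes and 127.2 at 2212 summits away from gene starts. By gap the medians were 109.6, 110.0, 155.8, 185.8 and 202.8 from the shortest class to the longest, and signals above 500 numbered 5 of 138, 6 of 220, 15 of 115, 16 of 108 and 18 of 94 pairs. By position they were 181.8 in the gap, 105.6 inside the downstream gene and 113.4 inside the upstream gene. The authors' score was at its cap of 1000 for 79.4% of junction summits, near the 82.4% of the whole list.

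**Figure D4:**
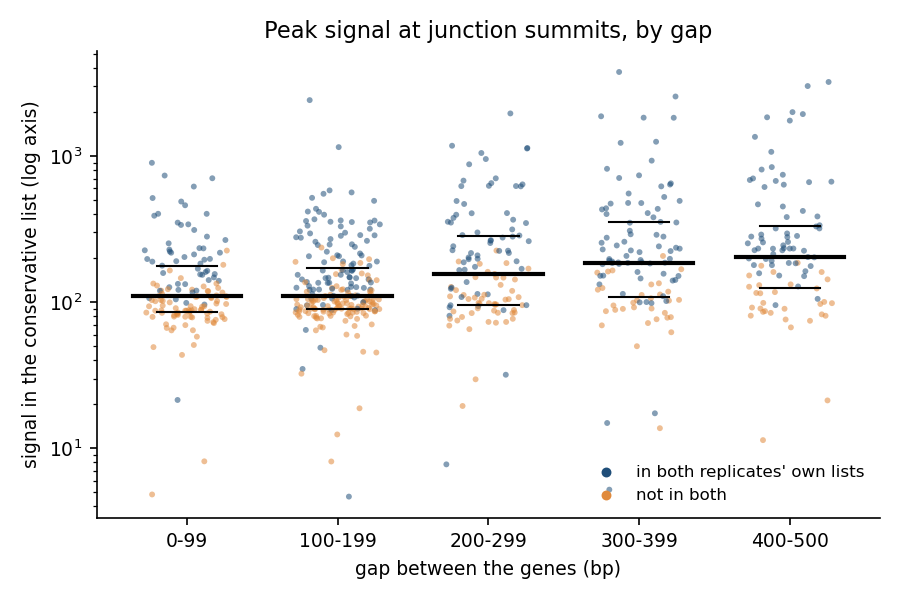
Signal of each pair in the conservative list (y axis, log scale) by gap class (x axis, bp); thick lines are medians, thin lines the limits of the middle 50%, blue points were in both replicates' own thresholded lists and orange points were not. Medians go from 109.6 at the shortest gaps to 202.8 at the longest, and weaker peaks are mostly orange.

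In the replicates' own thresholded lists, 351 of the 665 junction peaks overlapped a peak of both replicates (52.8%, 49.0 to 56.5), against 691 of 1103 other gene-start peaks (62.6%) and 56.1% of the whole list. The difference from other gene starts was -9.87 points (-14.6 to -5.11). Within 4 bins of signal it was 3.41, 2.10, -2.15 and 1.36 points from weakest to strongest, each with an interval that included 0. The widest of these intervals ran from -6.99 to 11.3 points. Whether signal accounts for the difference was not tested. Replicate 1's list, the shorter one with 2791 nuclear peaks, held 370 junction peaks and replicate 2's list of 4519 held 555. Of the rest, 19 were in replicate 1's list alone, 204 in replicate 2's alone and 91 in neither. A replicate's peak can overlap more than 1 conservative peak, and for 26 of the 351 the peaks of both replicates were also those of another junction peak. In the longer ranked lists made before thresholding, 652 of the 665 were found in both replicates, with a Spearman correlation of ranks of 0.81 as a description. With gaps under 200 bp 43.0% of pairs were in both lists, against 64.4% with gaps of 200 to 500 bp, a difference of -21.3 points (-28.5 to -13.8); within the bins of signal it was -11.8 (-24.0 to -1.75), 11.2 (-3.30 to 24.1), -1.61 (-14.5 to 10.3) and 0 points (-8.03 to 3.81) from weakest to strongest, so that the interval of the weakest bin excluded 0.

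The strongest junction peaks missing from a replicate's thresholded list were all missing from replicate 1. H05L14.2 had a signal of 236.11 and ranked 1509 in replicate 1's ranked list with a score of 400. The dynactin subunit gene dnc-3 had 225.25 and ranked 1005 there with a score of 581. C35D10.7 had 225.22 and ranked 2148 with a score of 809, so that all 3 were called in replicate 1 but fell short of its threshold.

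Many junction genes of the germ line had a summit. Of 24 junction genes in a list of germ line, oocyte and maternal RNA regulators, 18 had a summit (75%, 55.1 to 88.0), in the gap for 15 of them and in both replicates' own lists for 15. Genes of the same list that are not at junctions had one in 61 of 108 cases (56.5%), and the difference of 18.5 points had an interval that included 0 (-3.31 to 34.6). Besides chs-1, perm-1, oma-1 and egg-4, the list held tofu-6 with a signal of 1149.1, the eggshell gene egg-3 with 1123.9, the Pumilio-family gene puf-5 with 661.9, the cytoplasmic poly(A) polymerase gene gld-2 with 516.9 and the RNA-binding protein gene daz-1 with 400.4. Further down came the translational repressor gene gld-1 with 329.2, egg-2 with 256.2 and the P granule helicase gene glh-1 with 207.0.

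Shares among genes of basic cell machinery varied between lists. Of junction genes encoding proteasome subunits, 8 of 9 had a summit, led by the deubiquitinase gene rpn-11 at 621.7, and 5 of 9 in DNA replication, led by the ribonucleotide reductase gene rnr-1 at 1174.5, the geminin gene gmn-1 at 706.7 and the helicase gene mcm-4 at 651.5. The counts were 6 of 11 for the vacuolar ATPase and autophagy, 10 of 21 for the respiratory chain and ATP synthase, 5 of 11 for aminoacyl-tRNA synthetases, 6 of 9 for ribosomal proteins, 6 of 14 for chaperones and 3 of 7 for translation factors. They were 15 of 37 for RNA polymerases, mediator and general transcription factors, 9 of 23 for RNA 3′ processing and decay, 11 of 29 for chromatin, 15 of 42 for splicing, 7 of 20 for chromosome segregation and 8 of 23 for the ubiquitin and SUMO pathway. Lists nearer to the 17.3% of all junction genes were DNA repair and meiosis with 8 of 29, mitochondrial ribosomal proteins with 7 of 27, vesicle traffic with 10 of 51, mitochondrial import with 2 of 13 and the nuclear pore with 1 of 6.

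Few chemoreceptor and nuclear hormone receptor genes were bound at junctions. Of chemoreceptor genes, 3 of 203 at junctions (1.48%, 0.504 to 4.25) had a summit. The counts were 1 of 38 for nuclear hormone receptors (interval 0.466 to 13.5) and 3 of 74 for F-box, MATH and BTB genes (1.39 to 11.3), all below the 17.3% of all junction genes. Low shares were not particular to junctions: elsewhere the same lists had 7 of 1096, 2 of 231 and 16 of 338 genes bound, in the same order. Intervals that hold 17.3% were those of cuticle collagens, with 2 of 27 (2.06 to 23.4), and of neuropeptides and insulins, with 2 of 7 (8.22 to 64.1). Of the 3 chemoreceptor genes, srw-95 follows the translation initiation factor gene eif-1.A with a signal of 116.3, srbc-58 follows the cochaperone gene sti-1 with 88.1, and srg-61 follows another chemoreceptor gene, srg-62, with 77.4. In the F-box, MATH and BTB list, fbxc-45 follows the ubiquitin-conjugating enzyme gene ubc-13 with 197.7, bath-30 follows F14D2.14 with 132.2 and fbxa-140 follows C47B2.2 with 86.8.

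The same lists were compared between junctions and the rest of the genome. In 22 of the 25 lists the interval of the difference included 0, which does not show that the shares are alike. Junction genes stood lower for DNA repair and meiosis, at 27.6% of 29 against 59.3% of 59 elsewhere (-31.7 points, -49.1 to -9.58), and for the nuclear pore, at 16.7% of 6 against 65.8% of 38 (-49.1 points, -68.0 to -6.37). They stood higher for neuropeptides and insulins, at 2 of 7 against 1 of 133 (27.8 points, 7.19 to 63.4). Neither of those 2 junction genes had a summit in both replicates' own lists. With 25 lists read at 95%, some intervals of this kind would miss 0 without a difference.

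**Figure D5:**
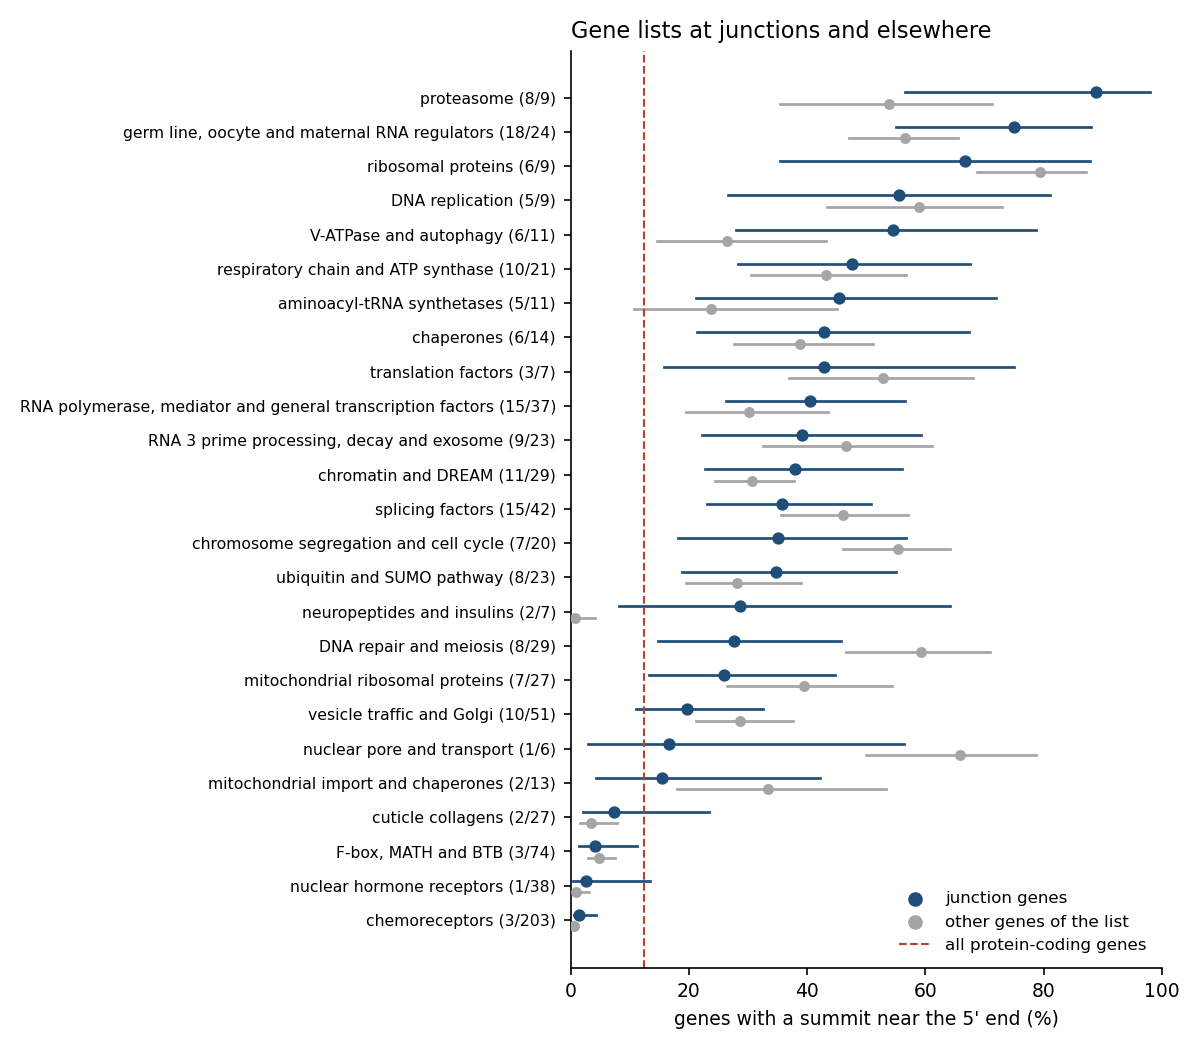
Percent of genes with a summit within 500 bp of the 5′ end (x axis) for 25 gene lists (rows, with the number of bound junction genes over all junction genes of the list); blue points are junction genes and grey points the other genes of the list, bars are 95% Wilson intervals, and the dashed line is the 12.3% of all protein-coding genes. Chemoreceptors are lowest at 1.48% and proteasome genes highest, with 8 of 9.

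Most runs carried no or 1 bound inner gene. Of 2653 runs, 2130 had none, 446 had 1, 60 had 2, 11 had 3, 3 had 4 and 3 had 5. Run size limits these counts, since a run of 2 genes has only 1 inner gene. Runs of 2 held 4010 genes, runs of 3 held 1383 and longer runs 878. In the run headed by C53H9.2 on chromosome I, summits lay at rpl-27 (signal 248.6), egl-30 and the small gene C53H9.4 (the same summit, 280.6), the emerin gene emr-1 (226.3) and the neuropeptide gene nlp-12 (94.9). All but that at nlp-12 were in both replicates' own lists. C53H9.4 lies inside egl-30 on the same strand, and each was counted as a bound inner gene. In the 8-gene run headed by golg-5, also on I, gld-1 had the strongest summit at 329.2, followed by T23G11.11 at 285.5 and gna-2, which makes a precursor of eggshell chitin, at 156.4. The rlbp-1 and T23G11.10 genes of that run had none, nor did its head. The run headed by zhit-3 on V, with the transcription factor IIIC gene tftc-3 and the RNA polymerase III gene rpc-25, had only weak summits of 84.2 to 87.4, none in both lists, and its last 3 bound genes shared 1 summit. Of these 3, ZK856.19 lies inside ZK856.11.

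At the 5 shortest gaps among members in both replicates, the summit sat in one of the genes and not between them. With gaps of 1 to 14 bp there was almost no room between the genes, so this placement follows from the choice of these pairs. F23C8.8 begins 1 bp after tipn-1 and had its summit in an intron 258 bp inside, with a signal of 617.5. C56C10.7 begins 1 bp after icd-1, the gene for a subunit of the nascent polypeptide-associated complex, and had its summit 91 bp before the end of icd-1, in the 3′ UTR, with 459.9. The DNA repair gene agt-1, 12 bp after the ribosomal protein gene rla-2, had its summit 51 bp inside with 233.1. Y62E10A.13 and C37C3.1, each with a gap of 14 bp, had summits 128 and 120 bp inside. All 5 were in both replicates' own lists, as the rule that named them required.

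The windows under junction summits were richer in G+C than their surroundings. Windows reaching 50 bp to each side averaged 42.8 ± 7.75% G+C (SD over 665 windows), against 36.05 ± 8.58% in windows of the same length 300 bp to each side, 44.6 ± 7.94% at other gene-start summits and 32.5 ± 8.01% at the midpoints of all 3618 junction gaps. Words were counted on both strands. GCGCGC was found in 6.77% of junction windows, against 0.601% of flanks, 12.2% of other gene-start windows and 1.24% of gap midpoints. CCCGCC was found in 6.77%, against 1.504%, 7.34% and 1.85% of the same windows in the same order. The words GCGGGA and GCGCGA, which were added after the printed sequences had been seen and of which the second overlaps GCGCGC, were in 9.47% and 7.97% of junction windows, against 2.48% and 1.05% of flanks, 10.9% and 12.9% of other gene-start windows and 2.18% and 1.77% of gap midpoints. Each of the 4 words was thus above flanks and gap midpoints in junction windows. GCGCGC and GCGCGA were below their shares at other gene starts, with intervals that did not overlap. For CCCGCC and GCGGGA the intervals overlapped those at other gene starts. In the stronger part of the list the intervals of all 4 words overlapped, and CCCGCC was in 8.75% of junction windows against 7.95% at other gene starts.

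A word picked from the junction windows of chromosomes I, III and V, CGAGAC, was then counted on II, IV and X. There it was in 28 of 261 junction windows (10.7%, 7.53 to 15.1), against 3.07% of flanks, 18.1% of other gene-start windows and 2.97% of gap midpoints. Summits in the gap held these words more often than summits inside the downstream gene: GCGCGC in 11.2% against 2.41%, and GCGGGA in 12.4% against 5.52%. AATAAA, the word of the poly(A) signal, was in 14.9% of junction windows (12.4 to 17.8), against 28.0% of flanks and 33.4% of gap midpoints. Other gene-start windows held AATAAA in 18.3% (16.1 to 20.7), an interval that overlapped that of junction windows. Either strand was counted, so these are not shares of poly(A) signals in the genes' own direction. Mean G+C also differed, at 42.8% in junction windows, 36.05% in flanks and 32.5% at gap midpoints. The splice acceptor word TTTCAG, also counted on either strand, was in 22.1% of windows inside the downstream gene and 8.46% of those in the gap. It was in 22.7% of flanks, 20.0% of gap midpoints and 9.34% of other gene-start windows, so the windows inside the gene were near the flanks. A word in a window is a description of these letters, and most junction windows held none of the G+C-rich words.

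The limits of the rule cut through a continuous range. The farthest summits kept were at gasr-8, 494 bp upstream, and at kap-1, 498 bp inside, and the widest gap was 500 bp at cacn-1. Just outside lay summits 510 bp upstream of C37A2.6 and 503 bp inside C28A5.6, and one at Y75B8A.8 with a gap of 502 bp. The rule dropped 2 junction summits for lying between divergent genes. Of the 665 members, 12 had another protein-coding 5′ end in the window and 27 had a small RNA gene there: a snoRNA gene for 17, a tRNA gene for 4, a snRNA gene for 4 and a miRNA gene for 2.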

How the data were processed

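The deposited material consists of ranked and thresholded peak lists on the ce11 assembly (WBcel235), per the labels. Each peak has a summit offset, a score and a signal. The score is a scaled irreproducible discovery rate capped at 1000, and the signal is an enrichment value, both as deposited by the authors. Signal was compared within a list only. Both replicates share 1 control; aligner, peak caller and settings: not given in the sources used here. Without read counts the depth is unknown.

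Coordinates are 1-based. Genes came from Ensembl release 115 and sequences from the RefSeq WBcel235 genome. A summit is the peak start plus its offset, and peaks were shared from an overlap of 1 bp. Shares have 95% Wilson intervals and differences Newcombe intervals, computed in Python 3.11.15 with NumPy 2.4.6, pandas 2.3.3 and SciPy 1.17.1; these cover counting error only. No p-values were computed, since there was 1 group of 2 replicates. Named genes were the 15 strongest members in both replicates, up to 3 per gene list, the shortest gaps, the members nearest the limits, the strongest missing from a replicate and the runs with most bound inner genes; weaker germ line genes, the runs' other genes and pairs after ribosomal protein genes were named after their values were seen. CGAGAC was the 6-base word whose share in junction windows of chromosomes I, III and V most exceeded its share in their flanks. Members and lists, chosen by gene name, were chosen with earlier results of these data known. The steps were tested on simulated data. Alternatives covered other lists, windows, gaps, assignments and overlaps.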

Additional observations from a re-analysis of the deposited data

How the results depend on the processing

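The number of junction summits was 395 when replicate 1's thresholded list was used alone, 297 in the stronger part of the conservative list and 411 with gaps up to 250 bp; the other 8 settings stayed within 1.5 times the 665, with 663 for replicate 2's list alone. The share of junction genes with a summit, 17.3%, was 18.99% with the less strict list, 8.18% with the stronger part, 14.59% with a window of 250 bp, 19.65% with 1000 bp, 13.98% with gaps up to 1000 bp, and 10.53% to 17.55% in the lists of single replicates. The difference between inner genes and heads reversed, to 2.03 points with a window of 250 bp, 1.78 points (-0.0757 to 3.60, which includes 0) with summits counted for the closest gene start only and 4.88 points without divergent neighbours; the other 9 settings kept its sign. The difference from other gene starts in presence in both replicates was -1.997 points in the stronger part of the list, and 3.41, 2.10, -2.15 and 1.36 points within the 4 bins of signal, an alternative added after seeing the data. Bound junctions after ribosomal protein genes were 75.8% in the stronger part of the list, 100% with a window of 1000 bp and 78.8% without peaks near small RNA genes; the 8 others gave values inside the main interval. CGAGAC was in 16.7% of windows in the stronger part. The cause of these shifts was not tested, apart from the fewer or more peaks and genes each setting admits by construction. The split of position between short and long gaps kept its sign in all 11 settings, with intervals that excluded 0, and the share of germ line junction genes stayed inside its main interval in all 11. The settings for these 2 results and for ribosomal protein genes, and the one on small RNA genes, were added after seeing the data.

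No paired analysis was possible because there was 1 group. No read counts were given, so counting error per peak is unknown. Without an untagged strain, the part of signal not due to MADF-6 was not measured.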

Other observations

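Neighbouring conservative peaks could share their replicate peaks. W08F4.7, which follows the cochaperone gene cdc-37, had a pair of conservative peaks with signals of 160.41 and 4.67, the lower of which was the weakest of all members, at 21 bp inside the gene. Both were matched to the same peak of replicate 1, with a signal of 65.9, and to the same peak of replicate 2, with a signal of 81.1, so the weakest member has no replicate peak of its own. In all, 60 members shared their replicate 1 peak with another member and 56 shared their replicate 2 peak.

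The genes in longer runs were more often bound. A summit lay within 500 bp of the 5′ end for 23.5% of 878 genes in runs of 4 or more (20.8 to 26.4), 20.9% of 1383 genes in runs of 3, 17.5% of 4010 genes in runs of 2 and 9.23% of 13702 genes in no run.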
